A study of Mus musculus with 18 samples.

Results

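Ventral spinal cord tissue of SOD1 mutant mice was compared with ventral spinal cord tissue of wildtype mice. The comparison rests on 6 of the 18 samples of the series, 3 from SOD1 mutant and 3 from wildtype mice, which were taken by genotype and tissue as the labels give them. Each sample was read on 1 Affymetrix mouse expression array after a linear, T7-based amplification of total RNA. The other 12 samples are motor neurons of the spinal cord and of the facial nucleus. The labels name the mutants only as SOD1 mutant. They state no allele, promoter, copy number, strain, sex or pooling of animals, and they do not explain the D60 that stands in every title. They also tie no sample to an animal, so the spread between arrays may be partly technical, and all p-values measure only that spread.

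SOD1 encodes a copper and zinc superoxide dismutase of the cytosol, and mutations of the human gene cause familial amyotrophic lateral sclerosis, a disease in which motor neurons of the cord and brainstem die. Ventral cord holds those motor neurons together with interneurons, myelinating oligodendrocytes, astrocytes and microglia, the resident macrophages of the nervous system. In mice that carry mutant SOD1, microglia and astrocytes are known to become reactive in the ventral cord in the course of the disease. Interferon-stimulated genes encode antiviral proteins and are switched on by signals of the interferon receptors. A whole-tissue array reads the sum over these cells, so more cells of one kind and more RNA per cell cannot be told apart.

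Values are log2(intensity + 16) after quantile normalization, and a difference is the mean of the SOD1 mutant arrays minus the mean of the wildtype arrays on that scale. Of 18194 genes on the array, the 10916 with a mean of at least 8.84, the 40th percentile in tissue, were tested with limma, and a gene passed at a Benjamini-Hochberg adjusted p under 0.05. The 6 arrays were alike in quality: the median deposited intensity was between 533 and 583, and the actin controls gave a ratio of 3' to 5' signal between 1.56 and 1.78. Each array correlated with the others of its genotype with a mean r, over genes, of 0.971 to 0.976 and with those of the other genotype at 0.971 to 0.975. Genes of ventral cord were bright. The oligodendrocyte gene Mbp averaged 17.59 in SOD1 mutant tissue and 17.52 in wildtype tissue, the astrocyte channel Aqp4 16.30 and 16.05, and the glycine transporter Slc6a5 of inhibitory interneurons 14.57 and 14.63. Of the motor neuron markers, the vesicular acetylcholine transporter Slc18a3 averaged 11.60 and 11.87, while Chat and Mnx1 lay below the 40th percentile on all 6 arrays. The array probe sets of the T and natural killer cell list were below that level on all 6 arrays for 12 of 13 genes, including Cd3d, Cd3e and Cd3g, and those of the red blood cell list for 3 of 3. Their summed intensities were 1464 to 1980 in SOD1 mutant and 1006 to 1844 in wildtype tissue for T and natural killer cells, and 417 to 795 and 535 to 664 for red blood cells.

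RNA of neighbouring tissue differed between the arrays, and 1 wildtype array stood apart in it. The summed intensity of 10 skeletal muscle genes was 4000 to 4539 on the SOD1 mutant arrays and 3010, 3181 and 48932 on the wildtype arrays, and wildtype replicate 3 stood far above the other 5. Acta1, the actin of skeletal muscle, measured 9.72, 9.30 and 9.42 on the SOD1 mutant arrays, against 8.86, 8.70 and 13.59 on the wildtype arrays. Scn11a, a sodium channel of sensory ganglion cells, measured 8.67, 11.09 and 9.89 on the SOD1 mutant arrays, against 8.77, 8.86 and 7.52 on the wildtype arrays. It was highest on SOD1 mutant replicates 2 and 3 and lowest on wildtype replicate 3. Lum, a proteoglycan of fibroblasts and meninges, measured 11.04, 12.90 and 12.26 on the SOD1 mutant arrays, against 10.53, 10.9964 and 11.27 on the wildtype arrays, and again SOD1 mutant replicates 2 and 3 were the highest. Hoxd10, a homeobox gene of the caudal cord, measured 10.93, 9.99 and 10.75 on the SOD1 mutant arrays, against 11.58, 11.59 and 11.84 on the wildtype arrays. The groups did not overlap for Hoxd10, and its difference of -1.11 did not pass (adjusted p = 0.0696). No member of the lists for skeletal muscle (6 tested), sensory ganglion and dorsal horn (7), mural cells and fibroblasts (14) or Hox genes (19) passed the threshold. All 6 muscle genes had a lower mean in SOD1 mutant tissue (median -0.91), 12 of 14 fibroblast and mural genes a higher one (median 0.36), and 4 of 7 sensory ganglion and dorsal horn genes a lower one (median -0.15). The part of these tissues in the results below was not tested, except where a value without an array is given.

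**Figure D1:**
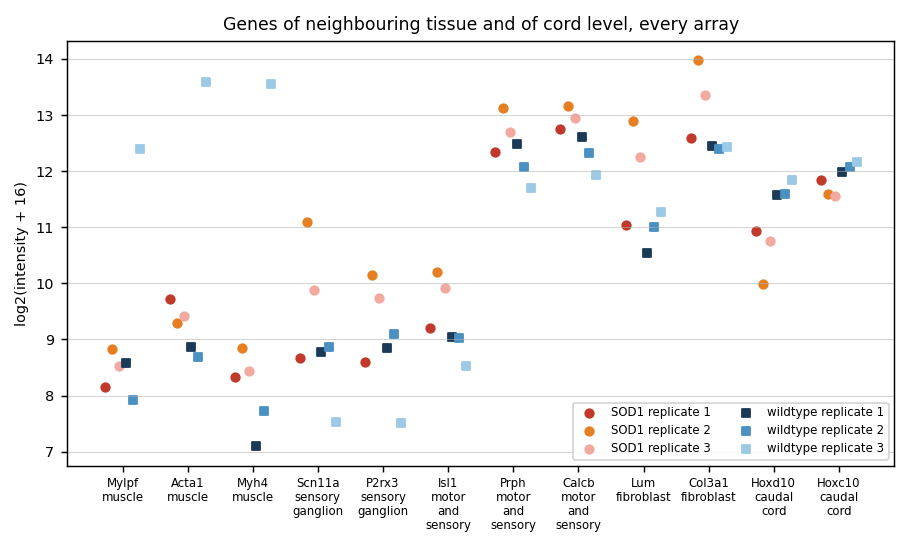
Level of 12 genes of neighbouring tissue or of cord level on each array, as log2(intensity + 16), with SOD1 mutant arrays as circles left of the wildtype arrays as squares. Wildtype replicate 3 is the highest for the 3 muscle genes (Acta1 at 13.59), SOD1 mutant replicates 2 and 3 are the highest for the ganglion and fibroblast genes, and Hoxd10 is lower on all 3 SOD1 mutant arrays than on the wildtype ones.

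Sod1 itself was higher in SOD1 mutant tissue by its main probe set. It measured 16.46, 16.40 and 16.60 on the SOD1 mutant arrays, against 16.02, 16.18 and 16.11 on the wildtype arrays (difference 0.38, SE 0.07, adjusted p = 0.0395). All 3 mutant arrays lay above all 3 wildtype arrays. The call was not stable: Sod1 passed in 8 of 19 alternatives and in 1 of the 6 fits without a single array. Its adjusted p was 0.0577 with quantile normalization over the 6 tissue arrays and 0.142 with the deposited values brought to 1 median, within a range of 0.0141 to 0.255 over all alternatives. The second bright probe set of Sod1 measured 15.84, 15.70 and 15.66 on the SOD1 mutant arrays, against 15.64, 15.55 and 15.56 on the wildtype arrays, a difference of 0.15 with groups that also did not overlap. Another one, also above the 40th percentile, measured 9.74, 9.47 and 9.52 on the SOD1 mutant arrays, against 9.96, 9.77 and 10.31 on the wildtype arrays, a difference of -0.44 in the other direction with groups that did not overlap either, and one more differed by -0.01 with overlapping groups. Mouse or human origin of the mutant gene is not stated in the labels, and whether these mouse probe sets read it is not given in the sources used here, so they check the genotype labels only in part.

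Across the genes tested in ventral cord, 55 were higher in SOD1 mutant tissue (0.504% of 10916) and 15 were lower (0.137%). Both directions together make 0.641%, the share beside which the counts of list members stand. A short list with 0 past the threshold lies near that share and is no result about its genes. The genes that rose did so by a median of 0.97 and those that fell did so by a median of -0.58, while the median over all tested genes was -0.01. Of the 55, 26 rose by more than 1 on the log2 scale, and of the 15 only Sbsn fell by more than 1. Usp18, Timp1, Oasl2, Fcgr1 and Iigp1 had wildtype means below the filter level of 8.84. They entered the test only through their SOD1 mutant arrays, so their place among the 55 and in the list counts is less secure. Sizes depend on the normalization: with quantile normalization over the 6 tissue arrays alone the median of the higher genes was 0.81 and 18 of 54 tested were above 1, and with deposited values brought to 1 median it was 0.75 and 17 of 54. Without the threshold, 48.8% of tested genes had a higher mean in SOD1 mutant tissue. At an unadjusted p under 0.05 there were 533 genes with a higher and 550 with a lower mean. Of the 55, 40 (72.7%) belong to the lists of immune, reactive astrocyte or lysosomal genes used here, which hold 190 (1.74%) of all tested genes and were chosen with earlier results of these data known. With each array's deposited values brought to 1 median in place of quantile normalization, 36 genes were higher and 19 lower, so that 65.5% of those past the threshold were higher in place of 78.6%. The count depends on single arrays: without SOD1 mutant replicate 3 it was 10 higher and 3 lower, without SOD1 mutant replicate 1 it was 97 and 22, and with all 18 arrays of the series in one fit it was 0 and 4. All 55 and all 15 kept their sign in every alternative in which they were tested. Where groups do not overlap, leaving out an array or changing the filter or variance model cannot reverse a sign. Those alternatives therefore add no support. The groups were apart in all 70 genes past the threshold, which goes with how they were chosen. Groups apart in such a gene therefore describe it and add no support to its call. Without the filter on level, 4 of 7278 dimmer genes passed, all higher and named after their values were seen: Serpina1b, an alpha-1-antitrypsin gene, at 5.32 (adjusted p = 0.00879), Ifi202b, an interferon-inducible gene, at 3.02 (adjusted p = 0.0296), the thyroid hormone carrier Ttr at 2.25 (adjusted p = 0.0446) and Cst7, a cystatin of activated microglia, at 2.08 (adjusted p = 0.0446). Their wildtype means were below the 40th percentile, so no fold is given.

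**Figure D2:**
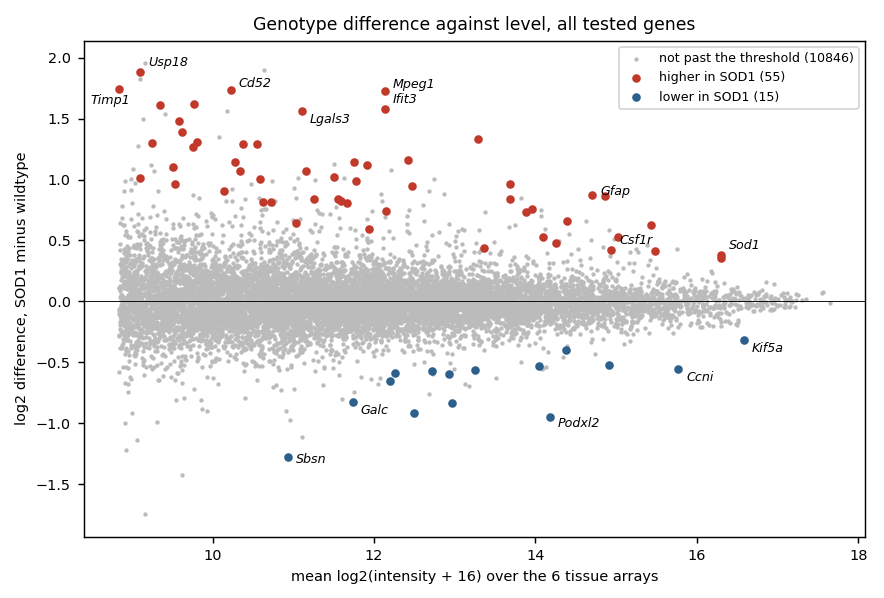
Log2 difference between SOD1 mutant and wildtype tissue (SOD1 minus wildtype, vertical axis) against the mean log2(intensity + 16) over the 6 arrays (horizontal axis) for the 10916 tested genes. The 55 genes higher in SOD1 mutant tissue (red) reach 1.88 and spread over all levels, and the 15 lower ones (blue) reach -1.28 and lie at middle and high levels.

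Part of the genes that mark microglia rose in SOD1 mutant cord. Of 23 tested identity genes, 8 passed as higher and none as lower, beside 0.504% and 0.137% of all tested genes. The median over the 23 was 0.61, against -0.01 over all tested genes, and 15 of 23 had groups that did not overlap with SOD1 mutant arrays above, against 7.06% of all tested genes. Mpeg1, a pore-forming protein that macrophages use against bacteria, measured 13.07, 12.86 and 13.04 on the SOD1 mutant arrays, against 11.19, 11.40 and 11.22 on the wildtype arrays (difference 1.72, SE 0.11, adjusted p = 0.000383). This was a 3.30-fold difference on the scale of intensity + 16, with a gap of more than 1 log2 unit between the groups. With quantile normalization over the 6 tissue arrays alone the difference was 1.38, and with deposited values brought to 1 median it was 1.32. Ifit3, Ly86 and Laptm5, all described here, were smaller in the same way, at 1.27, 1.11 and 0.89 on the log2 scale in the normalization over 6 arrays. Fcrls, an Fc receptor-like protein known from mouse microglia, measured 10.81, 10.17 and 10.75 on the SOD1 mutant arrays, against 8.46, 9.26 and 9.15 on the wildtype arrays (difference 1.62, SE 0.25, adjusted p = 0.0212). Ly86, the secreted partner of the Toll-like receptor homolog Cd180, measured 13.77, 14.15 and 13.97 on the SOD1 mutant arrays, against 12.72, 12.62 and 12.54 on the wildtype arrays (difference 1.33, SE 0.11, adjusted p = 0.0014). In each of these genes the lowest mutant array stood above the highest wildtype array.

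The other identity genes that passed encode parts of microglial signalling. Tyrobp, the adaptor that carries the signal of Trem2, rose by 1.16 (adjusted p = 0.00348), and Trem2, a receptor for lipids and debris, by 1.11 (adjusted p = 0.0167). Laptm5, which sits in lysosomal membranes of leukocytes and microglia, rose by 1.12 (adjusted p = 0.00346) and Ptprc, the leukocyte phosphatase CD45, by 1.07 (adjusted p = 0.0167). Csf1r, the growth factor receptor on which microglia depend, had a mean of 15.15 in SOD1 mutant and 14.73 in wildtype tissue, and rose by 0.42 (adjusted p = 0.0241), the smallest rise among the 8. Identity genes that did not pass included Cd53, a leukocyte tetraspanin, at 0.72 (adjusted p = 0.0669), Selplg, a selectin ligand, at 0.61 (adjusted p = 0.0696), and Aif1, the actin-binding protein Iba1, at 0.63 (adjusted p = 0.17). The homeostatic receptor P2ry12 measured 12.25, 12.06 and 12.17 on the SOD1 mutant arrays, against 11.96, 12.26 and 12.02 on the wildtype arrays, with overlapping groups and a difference of 0.08. Tmem119, another gene of resting microglia, differed by 0.16 and overlapped as well. Differences ran from -0.09 to 1.72 within this list, and whether genes of resting microglia differ from the others in it was not tested. Of 11 genes of border macrophages and monocytes on the array, 6 were below the 40th percentile on all 6 arrays, Cd163 and Lyve1 among them. Their summed intensity was 3694 to 5566 on the SOD1 mutant and 3713 to 4053 on the wildtype arrays.

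Genes of activated microglia passed in 5 of 21 tested, all higher in SOD1 mutant tissue (median of the 21 0.61), beside 0.504% of all tested genes. Cd52, a small surface glycoprotein of lymphocytes and microglia, measured 11.09, 11.14 and 11.05 on the SOD1 mutant arrays, against 9.11, 9.75 and 9.22 on the wildtype arrays (difference 1.73, SE 0.18, adjusted p = 0.00348). Lgals3, a galectin of phagocytes, measured 11.41, 12.35 and 11.90 on the SOD1 mutant arrays, against 10.43, 10.35 and 10.19 on the wildtype arrays (difference 1.56, SE 0.21, adjusted p = 0.0129). Mutant replicate 2 was highest and replicate 1 lowest for Lgals3, and the difference lay between 1.33 and 1.80 when single arrays were left out. Clec7a, a receptor for fungal glucans that marks disease-associated microglia, measured 10.63, 10.16 and 10.18 on the SOD1 mutant arrays, against 9.23, 8.53 and 8.76 on the wildtype arrays (difference 1.48, SE 0.22, adjusted p = 0.0167). Cd68, a lysosomal protein of phagocytes, measured 10.95, 11.41 and 11.25 on the SOD1 mutant arrays, against 9.91, 9.95 and 9.86 on the wildtype arrays (difference 1.30, SE 0.15, adjusted p = 0.0056). The groups were apart in all 4 genes. Lpl, the lipoprotein lipase, rose by 0.84 (adjusted p = 0.0313). Vim, an intermediate filament shared with reactive astrocytes, was at 0.66 (adjusted p = 0.0517) and Apoe, a lipoprotein of glia that also marks activated microglia, at 0.06 (adjusted p = 0.849), and neither passed.

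A few genes of complement and antibody receptors rose as well, where 0.504% of all tested genes passed as higher. Of 10 tested complement genes, 3 passed, all higher: C1qb and C1qc, chains of the starter protein of the classical pathway, and Itgb2, the beta chain of complement receptor 3. C1qb measured 12.05, 12.39 and 12.36 on the SOD1 mutant arrays, against 11.36, 11.31 and 11.17 on the wildtype arrays (difference 0.99, SE 0.12, adjusted p = 0.00912). C1qc rose by 0.75 (adjusted p = 0.0291) and Itgb2 by 1.14 (adjusted p = 0.00932). The remaining chain, C1qa, was at 0.60 (adjusted p = 0.0843) and did not pass. All 3 C1q chains were higher on each mutant array than on any wildtype array, and the other complement genes that were tested ranged from -0.22 to 0.79. Of 15 genes of Fc receptors and phagocytic signalling, 2 passed as higher: Fcer1g, the shared signalling chain of Fc receptors, at 1.02 (adjusted p = 0.00629) and Fcgr1, the high-affinity receptor for IgG, at 1.02 (adjusted p = 0.0269). The mean of Fcgr1 in wildtype tissue was below the 40th percentile, so no fold is given for it. Fcgr3, the low-affinity receptor, was at 0.64 (adjusted p = 0.0577) and Cyba, a subunit of the phagocyte oxidase, at 0.66 (adjusted p = 0.147).

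**Figure D3:**
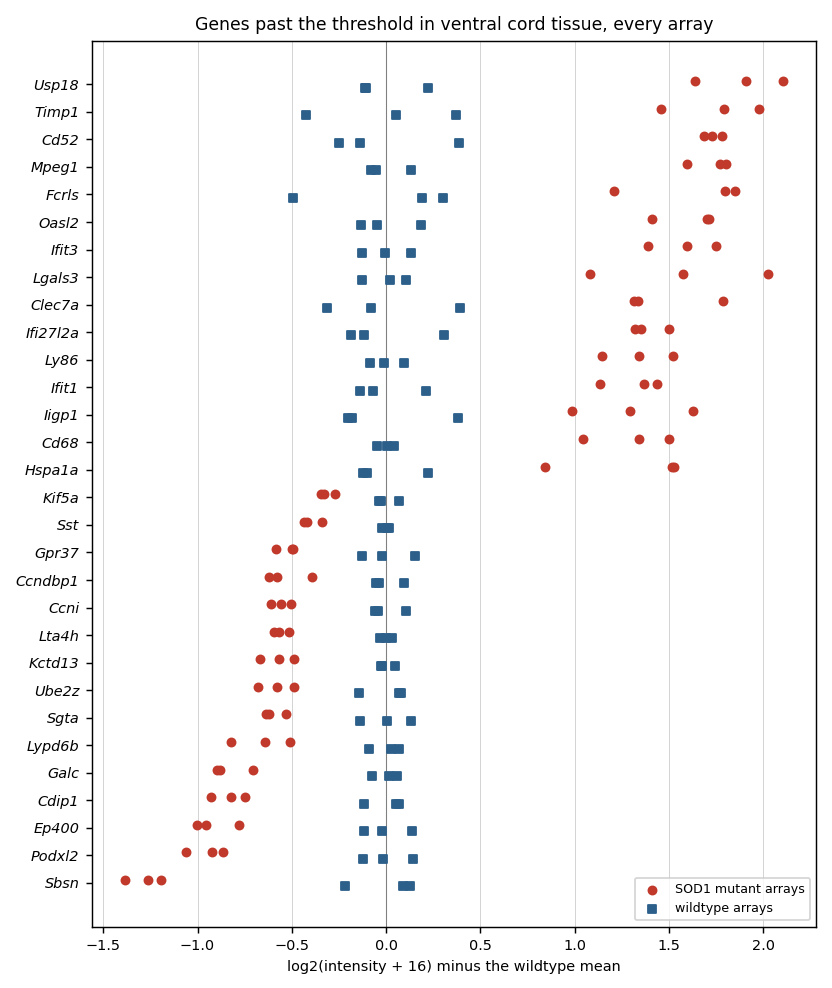
Level on each array minus the wildtype mean, as log2(intensity + 16), for the 15 largest differences in each direction among genes past the threshold, with SOD1 mutant arrays as red circles above the wildtype arrays as blue squares in each row. The groups do not overlap in any of the 30 genes, which goes with their choice by the test, and the spread among the mutant arrays is widest for genes such as Lgals3 and Hspa1a.

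Part of the interferon-stimulated genes rose in SOD1 mutant cord. Of 39 tested, 10 passed as higher and 0 as lower, beside 0.504% and 0.137% of all tested genes. Among the 10, Usp18, Oasl2 and Iigp1 had wildtype means below the filter level and entered only through their mutant arrays. The median over the 39 was 0.66, and in 26 of 39 every mutant array was above every wildtype array (7.06% of all tested genes). Many such genes carry, near their start, an element bound by interferon regulatory factors. Its core was searched as GAAA, any 2 bases and GAAA again on both strands in the 250 bases before each RefSeq gene start. It was present in 2.98% of 32851 windows of all genes, in 2.93% of 8865 tested genes that have a window, and in 14 of 33 tested interferon-stimulated genes that have one. Of the 55 genes that rose, 40 have a window and 6 hold the core: Ifit3, Ifit1, Bst2, B2m, Gbp7 and Ctss. Of the 15 that fell, 13 have a window and 1 holds it. A match is a description of these letters and not a measured binding site. The stretch from 170 to 41 bases before the start is shown for the 5 genes whose matches lie inside it, 5′ to 3′ in the direction of the gene, with the matches on either strand in capitals.
Ifit3 (GRCm38.p6, chr19:34583359-34583488, plus strand): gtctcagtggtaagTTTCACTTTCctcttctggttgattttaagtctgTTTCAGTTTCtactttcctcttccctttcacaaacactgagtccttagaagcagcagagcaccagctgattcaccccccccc
Ifit1 (GRCm38.p6, chr19:34640719-34640848, plus strand): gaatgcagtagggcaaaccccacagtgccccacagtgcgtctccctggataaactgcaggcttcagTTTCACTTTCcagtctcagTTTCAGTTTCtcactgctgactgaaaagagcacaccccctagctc
Bst2 (GRCm38.p6, chr8:71537513-71537642, minus strand): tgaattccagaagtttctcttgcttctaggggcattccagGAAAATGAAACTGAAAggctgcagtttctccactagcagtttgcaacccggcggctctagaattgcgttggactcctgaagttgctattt
B2m (GRCm38.p6, chr2:122147517-122147646, plus strand): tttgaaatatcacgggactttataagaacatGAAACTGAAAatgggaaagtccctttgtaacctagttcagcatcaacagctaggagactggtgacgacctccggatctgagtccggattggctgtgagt
Gbp7 (GRCm38.p6, chr3:142530166-142530295, plus strand): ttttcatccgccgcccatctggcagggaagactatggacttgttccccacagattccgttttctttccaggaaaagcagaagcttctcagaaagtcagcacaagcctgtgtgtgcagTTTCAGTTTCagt
Ifit3 and Ifit1 each hold a pair of separate matches on the reverse strand, and the pair in Bst2 overlaps.

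Among the genes that encode antiviral effectors, Ifit3, which binds foreign RNA in a complex with Ifit1, measured 12.74, 13.10 and 12.94 on the SOD1 mutant arrays, against 11.48, 11.22 and 11.34 on the wildtype arrays (difference 1.58, SE 0.12, adjusted p = 0.0013). Ifit1 measured 10.28, 10.51 and 10.58 on the SOD1 mutant arrays, against 9.08, 9.36 and 9.01 on the wildtype arrays (difference 1.31, SE 0.16, adjusted p = 0.00866). The groups were apart for both. Oasl2, a member of the oligoadenylate synthetase family, measured 10.26, 10.24 and 9.95 on the SOD1 mutant arrays, against 8.73, 8.49 and 8.41 on the wildtype arrays (difference 1.61, SE 0.17, adjusted p = 0.0042). Bst2, the tetherin that holds budding virus at the membrane, measured 10.14, 10.51 and 10.53 on the SOD1 mutant arrays, against 8.90, 9.16 and 9.32 on the wildtype arrays (difference 1.27, SE 0.18, adjusted p = 0.0164), and Ifitm3, which blocks virus entry, rose by 0.74 (adjusted p = 0.0191), with means of 14.26 in SOD1 mutant and 13.52 in wildtype tissue. Ifi27l2a, a mitochondrial interferon-induced protein, measured 10.28, 10.25 and 10.43 on the SOD1 mutant arrays, against 8.81, 9.24 and 8.74 on the wildtype arrays (difference 1.39, SE 0.18, adjusted p = 0.00912).

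Usp18, the protease that removes Isg15 and dampens the interferon receptor, gave the largest difference of all genes past the threshold. It measured 9.80, 10.27 and 10.07 on the SOD1 mutant arrays, against 8.05, 8.39 and 8.05 on the wildtype arrays (difference 1.88, SE 0.19, adjusted p = 0.00348). All 3 wildtype values were below the 40th percentile, so no fold is given, and Usp18 entered the test only through its mutant arrays. Iigp1, an interferon-inducible GTPase, measured 9.59, 10.23 and 9.89 on the SOD1 mutant arrays, against 8.40, 8.42 and 8.98 on the wildtype arrays (difference 1.30, SE 0.23, adjusted p = 0.0395). Mutant replicate 2 was highest, and wildtype replicate 3 was the only wildtype array above the 40th percentile. Rtp4, a chaperone of G protein-coupled receptors, rose by 1.01 (adjusted p = 0.0116) and Lgals3bp, a secreted galectin ligand, by 1.07 (adjusted p = 0.0167). Outside the list, the guanylate-binding proteins Gbp6 and Gbp7 rose by 0.97 (adjusted p = 0.0294) and 0.82 (adjusted p = 0.0464). Members that did not pass included Xaf1, a pro-apoptotic effector, at 0.75 (adjusted p = 0.0577), Igtp, another GTPase, at 0.99 (adjusted p = 0.0753), and Irf7, the transcription factor of type I interferon, at 0.99 (adjusted p = 0.0955).

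The genes that make and sense interferon gave 0 members past the threshold. Of 19 ligands, receptors, kinases and regulators on the array, 9 were below the filter, Ifnb1 and Ifng among them. Of the 10 tested, 0 passed, which lies near the 0.641% of all tested genes. Their median was -0.02 and their range -0.25 to 0.41. The receptor chain Ifnar1 was at -0.25 (adjusted p = 0.588), the adaptor Mavs at 0.41 (adjusted p = 0.744), and the kinases Tbk1 and Jak1 at 0.14 and -0.06.

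Antigen presentation gave 1 passing gene of the class I pathway, B2m, the light chain shared by class I proteins. B2m measured 15.57, 15.87 and 15.77 on the SOD1 mutant arrays, against 14.97, 15.17 and 15.21 on the wildtype arrays (difference 0.62, SE 0.09, adjusted p = 0.0167). Its lowest mutant array stood above its highest wildtype array, and a second bright probe set gave 0.54. It was 1 of 10 class I and immunoproteasome genes to pass (median of the 10 0.35). The class I heavy chain H2-K1 was at 0.63 (adjusted p = 0.237), Tapbp, which loads peptide on class I, at 0.45 (adjusted p = 0.138), and the immunoproteasome subunit Psmb8 at 0.50 (adjusted p = 0.448). Of 7 tested class II genes, only the protease Ctss passed, which also stands in the lysosomal list. The 3 class II chains H2-Aa, H2-Ab1 and H2-Eb1 had differences between 0.14 and 0.25, and none passed. The class II invariant chain Cd74 was at 0.36 and the protease Lgmn at 0.21.

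Of 16 tested cytokine and chemokine genes, 0 passed, beside 0.641% of all tested genes. Of the 16, 14 had a higher mean in SOD1 mutant tissue. In 10 every mutant array was above every wildtype array (7.06% of all tested genes), and in 1 below (8.68%). Among chemokines the smallest p values belonged to Cxcl16, a membrane-bound ligand of T cells and microglia, at 1.07 (adjusted p = 0.0529) and Ccl9, a macrophage chemokine, at 1.28 (adjusted p = 0.0802). Tnfrsf1a, the receptor of tumour necrosis factor, was at 0.59 (adjusted p = 0.0843) and Osmr, the receptor of oncostatin M, at 0.71 (adjusted p = 0.177). The median of the 16 was 0.36. A further 26 members were below the filter, among them Tnf, Il1b, Il6 and Ccl2. In 8 of the 26 every mutant array was above every wildtype array, beside 7.06% of all tested genes. The share over the 7278 dimmer genes was not counted, so whether 8 of 26 is unusual near the floor is not known. None of the 26 passed in the fit without the filter, where the smallest adjusted p among them was 0.144. The dim chemokine Ccl3 measured 8.24, 8.68 and 8.63 on the SOD1 mutant arrays, against 6.06, 7.12 and 5.02 on the wildtype arrays, all below the 40th percentile. Toll-like receptors and their mediators gave 0 of 9 past the threshold. In 4 of the 9 every mutant array was above every wildtype array (7.06% of all tested genes), and in 1 below (8.68%). Tlr2, a receptor of bacterial lipoproteins, was at 0.78 (adjusted p = 0.175), and the kinase Irak1 at 0.57 (and at -0.23 by the probe set that is brightest in tissue). The co-receptor Cd14 was at 0.73 and the transcription factor Rela at -0.25.

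Lysosomal genes changed in part. Of 48 tested, 8 rose and 1 fell, beside 0.504% and 0.137% of all tested genes, and the median was 0.10. Among those that rose were 5 cathepsins, the proteases of the lysosome, and Laptm5 and Cd68, described above. Ctss, a cathepsin of antigen-presenting cells, measured 15.11, 15.49 and 15.28 on the SOD1 mutant arrays, against 14.30, 14.45 and 14.53 on the wildtype arrays (difference 0.87, SE 0.10, adjusted p = 0.00608). Grn, the precursor of the lysosomal granulins, measured 14.25, 14.38 and 14.39 on the SOD1 mutant arrays, against 13.59, 13.61 and 13.53 on the wildtype arrays (difference 0.76, SE 0.08, adjusted p = 0.00348). In both the groups were apart. Ctsh rose by 1.14 (adjusted p = 0.0212), Ctsz by 0.84 (adjusted p = 0.0167), Ctsc by 0.82 (adjusted p = 0.0167) and Ctsd, the main aspartic protease, by 0.52 (adjusted p = 0.0167). Ctsl was at 0.46 (adjusted p = 0.0696) and did not pass. The gene that fell was Galc, which breaks down the galactolipids of myelin and is described with the myelin genes. The remaining 39 tested genes of the list, among them proton pump subunits and lysosomal hydrolases, ranged from -0.45 to 0.46.

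Some reactive astrocyte genes rose in SOD1 mutant cord. Of 23 tested, 5 passed, all higher, beside 0.504% of all tested genes, with a median of 0.56 over the 23. Timp1, an inhibitor of matrix metalloproteinases, measured 9.43, 9.76 and 9.95 on the SOD1 mutant arrays, against 8.03, 7.55 and 8.34 on the wildtype arrays (difference 1.74, SE 0.24, adjusted p = 0.0167). The wildtype values were below the 40th percentile, so no fold is given. Gfap, the intermediate filament of astrocytes, measured 15.49, 14.93 and 14.9980 on the SOD1 mutant arrays, against 14.23, 14.37 and 14.20 on the wildtype arrays (difference 0.88, SE 0.13, adjusted p = 0.0198). Mutant replicate 1 was the highest. A pair of other Gfap probe sets are brighter in tissue and gave smaller differences: the brightest measured 16.78, 16.70 and 16.73 on the SOD1 mutant arrays, against 16.50, 16.38 and 16.48 on the wildtype arrays, a difference of 0.29, and the other differed by 0.38. The groups did not overlap by any of the 3 probe sets, so the direction was shared while the size ranged from 0.29 to 0.88.

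S100a6, a calcium-binding protein, measured 13.83, 14.45 and 14.22 on the SOD1 mutant arrays, against 13.26, 13.24 and 13.11 on the wildtype arrays (difference 0.97, SE 0.14, adjusted p = 0.0167). Fibroblasts also express S100a6 and Timp1. The fibroblast and mural list had a summed intensity of 253724 to 358831 on the SOD1 mutant arrays and 252393 to 281380 on the wildtype arrays, with mutant replicate 2 the highest. Leaving out single arrays, that one among them, gave differences of 0.82 to 1.13 for S100a6. Timp1 was fitted only without single wildtype arrays, which gave 1.53 to 1.93. Without any mutant array it fell below the filter, so it was not fitted without mutant replicate 2. Cd44, the hyaluronan receptor, rose by 0.84 (adjusted p = 0.0212) and S1pr3, a receptor of sphingosine 1-phosphate, by 0.82 (adjusted p = 0.0365). Serpina3n, a secreted protease inhibitor, was at 0.82 (adjusted p = 0.0647) and did not pass. Of 24 genes of homeostatic astrocytes, 0 passed, beside 0.641% of all tested genes, and their median was 0.04. The water channel Aqp4 measured 16.26, 16.30 and 16.33 on the SOD1 mutant arrays, against 15.99, 15.99 and 16.15 on the wildtype arrays, with groups apart and a difference of 0.25 (adjusted p = 0.139) that did not pass. The chaperone Clu was at 0.16, the gap junction protein Gjb6 at 0.30 and the glycine transporter Slc6a9 at -0.21. Outside both lists, Fabp7, a fatty acid-binding protein of radial glia and astrocytes, rose by 0.66 (adjusted p = 0.0167), and Sox2ot, a long noncoding RNA that overlaps Sox2, by 0.94 (adjusted p = 0.0167).

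**Figure D4:**
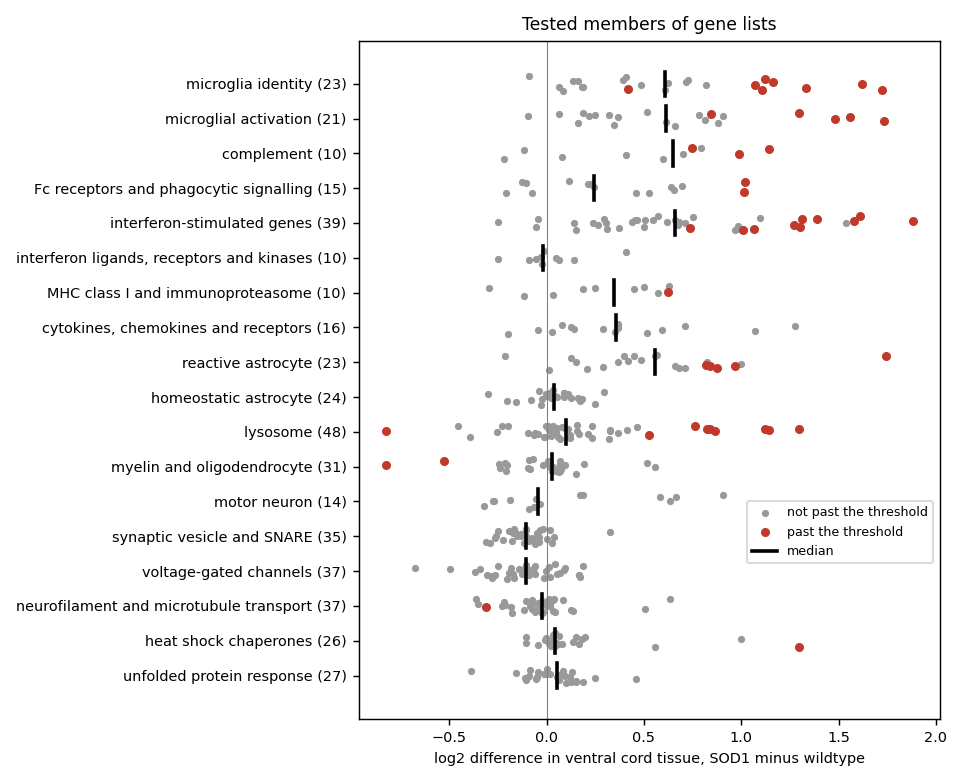
Log2 difference in ventral cord tissue (SOD1 minus wildtype, horizontal axis) of the tested members of 18 gene lists, 1 point per gene, with the number tested after each name, genes past the threshold in red and the median as a bar. The medians of microglia identity (0.61), interferon-stimulated (0.66) and reactive astrocyte genes (0.56) lie to the right of 0, and those of synaptic vesicle genes (-0.11) and channels (-0.11) slightly to the left.

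Myelin genes fell in 2 of 31 tested and rose in 0, beside 0.137% and 0.504% of all tested genes, with a median of 0.03. Galc measured 11.45, 11.27 and 11.26 on the SOD1 mutant arrays, against 12.08, 12.17 and 12.21 on the wildtype arrays (difference -0.83, SE 0.11, adjusted p = 0.00996). Gpr37, a receptor of oligodendrocytes that restrains their maturation, measured 14.67, 14.59 and 14.67 on the SOD1 mutant arrays, against 15.04, 15.14 and 15.32 on the wildtype arrays (difference -0.53, SE 0.08, adjusted p = 0.0212). In both genes the highest mutant array was below the lowest wildtype array. A second probe set of Galc gave -0.36. Mag, an adhesion protein of the inner myelin wrap, was at -0.21 (adjusted p = 0.213) and did not pass although its groups were apart, and Fa2h, which hydroxylates myelin lipids, was at -0.24. The structural gene Mbp measured 17.65, 17.61 and 17.51 on the SOD1 mutant arrays, against 17.54, 17.54 and 17.49 on the wildtype arrays, with overlapping groups. Among 13 genes of oligodendrocyte precursors, Ptprz1, a receptor phosphatase also made by astrocytes, was the only one to pass (0.48 (adjusted p = 0.029)), and its second bright probe set gave 0.08. The proteoglycans Cspg4, Cspg5 and Vcan of that list were at -0.44, -0.16 and 0.20.

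Genes of motor neurons gave 0 past the threshold among 14 tested (median -0.05), beside 0.641% of all tested genes. Their summed intensity over 21 genes was 104132 to 111332 on the SOD1 mutant arrays and 102076 to 110301 on the wildtype arrays. Isl1, a transcription factor of motor and sensory neurons, measured 9.20, 10.21 and 9.92 on the SOD1 mutant arrays, against 9.05, 9.03 and 8.52 on the wildtype arrays. Prph, the intermediate filament peripherin, measured 12.34, 13.13 and 12.69 on the SOD1 mutant arrays, against 12.49, 12.08 and 11.69 on the wildtype arrays. Both were highest on mutant replicates 2 and 3, the arrays that were also highest for the sensory ganglion genes Scn11a and P2rx3, and neither passed (0.91 and 0.63, adjusted p = 0.28 and 0.382). Slc18a3 was at -0.28 (adjusted p = 0.712). The peptide gene Calcb was at 0.66 (adjusted p = 0.2), the neurotrophic receptor Gfra1 at 0.58 (adjusted p = 0.214) and Ahnak2 at -0.27 (adjusted p = 0.327).

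Among neuronal genes, Kif5a and Sst fell. Kif5a, a heavy chain of the kinesin that carries cargo along axons, measured 16.47, 16.40 and 16.41 on the SOD1 mutant arrays, against 16.81, 16.71 and 16.70 on the wildtype arrays (difference -0.31, SE 0.05, adjusted p = 0.0247). The groups were apart, and a second probe set measured 12.49, 12.60 and 12.57 on the SOD1 mutant arrays, against 13.09, 13.32 and 12.88 on the wildtype arrays, a difference of -0.55. It was 1 of 37 genes of neurofilaments and microtubule transport to pass, and the median of the 37 was -0.02. The microtubule protein Map1a was at -0.35, the related kinesin Kif5b at -0.22 and the heavy neurofilament Nefh at -0.18. Sst, the inhibitory neuropeptide somatostatin, measured 14.16, 14.14 and 14.24 on the SOD1 mutant arrays, against 14.56, 14.58 and 14.60 on the wildtype arrays (difference -0.40, SE 0.07, adjusted p = 0.0313). Its spread between arrays was small, with an SD of 0.05 in SOD1 mutant and 0.02 in wildtype tissue (n = 3 each). It was 1 of 19 transmitter and neuropeptide genes of interneurons to pass, beside a median of -0.06. The calcium buffers Calb2 and Calb1 were at -0.25 and -0.20, and the tachykinin gene Tac1 was at 0.31.

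Synaptic genes had slightly lower values as a group without a member past the threshold. Of 35 tested genes of synaptic vesicles and their fusion machinery, 30 had a lower and 5 a higher mean in SOD1 mutant tissue, while over all tested genes 48.8% had a higher mean, and the median was -0.11. Syt2, the fast calcium sensor of release in motor and inhibitory terminals, measured 14.55, 14.53 and 14.56 on the SOD1 mutant arrays, against 14.90, 14.83 and 14.84 on the wildtype arrays, and its difference of -0.31 had an adjusted p of 0.0696. The sensor Syt4 was at 0.33, the fusion ATPase Nsf at -0.17 and the Rab3 effector Rph3a at -0.26. Of 37 voltage-gated channels, 26 were lower (median -0.11), with Hcn2, a pacemaker channel, at -0.68 (adjusted p = 0.115), the sodium channel Scn8a at -0.20, the calcium channel Cacna1e at -0.37 and the potassium channel Kcna1 at -0.18. Of 26 receptors of glutamate, GABA and glycine, 17 were lower (median -0.10). The receptor subunits with the smallest p were Gabra3 at -0.27, Grin2c at -0.54, Gria4 at -0.21 and Grin2d at -0.32. None of the channels or receptors passed. Shifting the deposited values to a common median moved the median of all tested genes to -0.06, a shift of the same order as these medians.

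The largest falls were of genes outside the lists. Sbsn, the secreted epithelial protein suprabasin, measured 10.19, 10.38 and 10.31 on the SOD1 mutant arrays, against 11.66, 11.70 and 11.36 on the wildtype arrays (difference -1.28, SE 0.13, adjusted p = 0.00366). Podxl2, a sialomucin related to podocalyxin, measured 13.59, 13.79 and 13.73 on the SOD1 mutant arrays, against 14.53, 14.63 and 14.79 on the wildtype arrays (difference -0.95, SE 0.09, adjusted p = 0.00346). Cdip1, a membrane protein of the p53 cell death pathway, measured 12.56, 12.45 and 12.63 on the SOD1 mutant arrays, against 13.43, 13.45 and 13.26 on the wildtype arrays (difference -0.84, SE 0.10, adjusted p = 0.00562). These 3 were the genes that passed as lower with each of the 6 arrays left out in turn. However, another probe set of Cdip1 is brighter in tissue. It had overlapping groups and a difference of -0.25, and Cdip1 did not pass by it. Ep400, a chromatin remodelling ATPase, measured 11.95, 12.18 and 12.0032 on the SOD1 mutant arrays, against 12.84, 12.93 and 13.10 on the wildtype arrays (difference -0.91, SE 0.11, adjusted p = 0.00629). Lypd6b, a surface protein that modulates nicotinic receptors, measured 11.70, 12.02 and 11.88 on the SOD1 mutant arrays, against 12.43, 12.55 and 12.59 on the wildtype arrays (difference -0.66, SE 0.11, adjusted p = 0.032). The highest mutant array was below the lowest wildtype array in both.

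Sgta, a co-chaperone that sorts membrane proteins, measured 12.61, 12.70 and 12.59 on the SOD1 mutant arrays, against 13.23, 13.37 and 13.09 on the wildtype arrays (difference -0.60, SE 0.10, adjusted p = 0.0274). Ube2z, a ubiquitin-conjugating enzyme, measured 11.88, 12.07 and 11.98 on the SOD1 mutant arrays, against 12.41, 12.62 and 12.64 on the wildtype arrays (difference -0.58, SE 0.11, adjusted p = 0.0497). Kctd13, an adaptor of the Cullin 3 ubiquitin ligase, measured 12.52, 12.44 and 12.34 on the SOD1 mutant arrays, against 12.98, 12.98 and 13.05 on the wildtype arrays (difference -0.57, SE 0.09, adjusted p = 0.0234). In each of the 3 the groups were apart. Lta4h, which makes leukotriene B4, measured 13.01, 12.96 and 12.93 on the SOD1 mutant arrays, against 13.56, 13.49 and 13.53 on the wildtype arrays (difference -0.56, SE 0.08, adjusted p = 0.0167). Ccni, cyclin I, measured 15.54, 15.44 and 15.49 on the SOD1 mutant arrays, against 16.15, 16.0039 and 15.99 on the wildtype arrays (difference -0.56, SE 0.06, adjusted p = 0.00562). Ccndbp1, a partner of cyclin D1, measured 13.92, 13.69 and 13.73 on the SOD1 mutant arrays, against 14.26, 14.41 and 14.27 on the wildtype arrays (difference -0.53, SE 0.09, adjusted p = 0.0272). The groups were apart here too, and the second probe sets of Ccni and Ube2z, given below, had overlapping groups.

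Second probe sets read the same RNA samples through other probes, and the choice of genes did not use them. Of the 55 genes that rose, 13 have a second probe set above the 40th percentile. By the brightest such probe set, all 13 differed in the same direction, 12 of them with groups apart, and 10 by at least 50% of the size (median 0.60, against 0.82 for the probe sets that represent these genes). Further probe sets of Sod1, among the 13, gave -0.44 with groups apart in the other direction and -0.01. Of the 15 that fell, 7 have one, of which 6 differed in the same direction, 3 with groups apart, and 1, Kif5a, by at least 50% of the size (median -0.26, against -0.83). Over all tested genes, 7.06% had every mutant array above and 8.68% every mutant array below the wildtype ones. Grn gave 0.94, Ctsh 1.12, C1qb 0.93 and Laptm5 0.60 by their second probe sets. For Sbsn, Ep400 and Cdip1 the second probe sets gave -0.38, -0.26 and -0.25, with overlapping groups for Ep400 and Cdip1. Ccni gave 0.03 by its second and 0.27 by 1 more probe set, and Ube2z gave -0.01. Probe sets of one gene can read different transcript ends, and which end each reads was not tested.

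**Figure D5:**
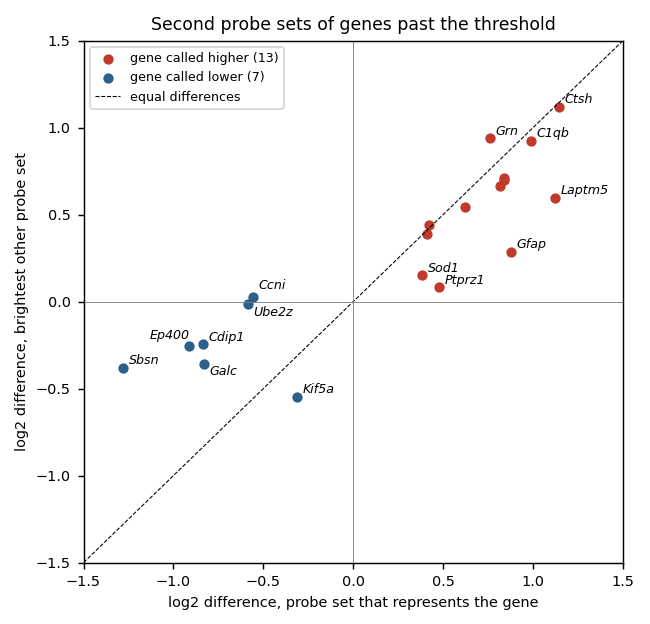
Log2 difference (SOD1 minus wildtype) of the brightest other probe set of a gene (vertical axis) against that of the probe set that represents it (horizontal axis), for the 13 genes that rose (red) and the 7 that fell (blue) and have a second bright probe set. Most red points lie near the dashed line of equal differences, while 6 of the 7 blue points lie well above it and only Kif5a lies below.

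Stress genes passed singly. Hspa1a, the inducible Hsp70 chaperone, measured 11.26, 10.58 and 11.25 on the SOD1 mutant arrays, against 9.96, 9.61 and 9.63 on the wildtype arrays (difference 1.29, SE 0.20, adjusted p = 0.0222). Mutant replicate 2 was the lowest of the mutant arrays and still above all wildtype arrays. It was 1 of 26 heat shock chaperones to pass, and the small chaperone Hspb1 was at 0.56 (adjusted p = 0.0978), the second inducible Hsp70 gene Hspa1b at 1.0001 (adjusted p = 0.327) and the mitochondrial Hspe1 at 0.20. Hspa1a and Hspa1b are near-identical copies, and their probe sets may share targets. Mt2, a metallothionein that binds zinc and copper, measured 16.46, 16.52 and 16.44 on the SOD1 mutant arrays, against 16.07, 16.19 and 16.09 on the wildtype arrays (difference 0.36, SE 0.05, adjusted p = 0.0191). The groups were apart, and the related Mt1 was at 0.14 (adjusted p = 0.327). Of 34 antioxidant and metallothionein genes, Mt2 and Sod1 were the only ones to pass, and the glutathione transferase Gstm1 was at -0.43 (adjusted p = 0.204).

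The other genes that rose belong to no common list. Dhrs1, a short-chain dehydrogenase, rose by 0.53 (adjusted p = 0.0167) and Hpgd, which inactivates prostaglandins, by 0.81 (adjusted p = 0.0233). Gsn, the actin-severing protein gelsolin, rose by 0.41 (adjusted p = 0.0234) and A2m, a broad protease inhibitor of blood plasma, by 0.44 (adjusted p = 0.044). Exosc9, a subunit of the RNA exosome, rose by 0.59 (adjusted p = 0.0291) and Slc16a6, a member of the monocarboxylate transporter family, by 0.65 (adjusted p = 0.0484). AU020206, the only one without a symbol of its own, rose by 0.91 (adjusted p = 0.0362). Of 25 mouse orthologs of genes linked to human amyotrophic lateral sclerosis, 3 passed: Sod1 and Grn as higher and Kif5a as lower, all 3 described above. Ang, a secreted ribonuclease of that list, was at 0.65 (adjusted p = 0.125).

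The genotype difference of tissue was set against that of motor neurons with interaction contrasts over 12 arrays each. Both contrasts use the same 6 tissue arrays. Against spinal motor neurons 6 of 10916 genes passed (0.055%), and 966 had an unadjusted p under 0.05. Of the 55 higher in tissue, 3 differed, each by a larger rise in the motor neuron samples: Lpl, Gfap and Laptm5. Gfap rose by 0.88 in tissue and was higher by 2.85 in SOD1 mutant spinal motor neuron samples (tissue minus motor neuron -1.97, SE 0.28, adjusted p = 0.0189). Glial genes were bright in these samples. Csf1r averaged 14.42 in SOD1 mutant and 12.45 in wildtype spinal motor neuron samples, and Gfap 13.95 and 11.10. Which cells gave this RNA was not tested, so the differences there are those of the samples. Against facial motor neurons 5 genes passed (0.0458%), none of them a gene that passed in tissue. Of the 55, 52 were bright enough to be tested beside spinal motor neurons, and 50 of them were also higher in those samples. The median was 0.96 in tissue and 1.49 in the spinal motor neuron samples, where 52.3% of all tested genes were higher with a median of 0.02. Of 46 tested beside facial motor neurons, 27 were higher there, with medians of 0.87 in tissue and 0.17 in the motor neurons, beside 52.4% of all tested genes and a median of 0.02. Of the 15 genes that fell in tissue, 13 were lower in SOD1 mutant spinal and 12 in SOD1 mutant facial motor neurons, beside 47.7% and 47.6% of all tested genes. Leaving out single tissue arrays gave 1 to 2 genes in either contrast.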

How the data were processed

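Total RNA of 18 mouse samples was amplified linearly, per the labels, and read on arrays whose probe set names are those of Affymetrix. The authors deposited 1 table of linear intensity values for 45101 probe sets; the image processing is not given in the sources used here. Each array has a mean of 2500 once 2% of its probe sets are trimmed from either end, the mark of scaling to 1 target. The intensity values deposited received a pseudocount of 16, were taken to log2 and were quantile normalized across all 18 arrays, since array quartiles differed by more than 0.1. Differences understate changes of dim genes. Platform annotation gave 1 symbol to 34945 probe sets, several to 932 and none to 9160, beside 64 controls, and 34741 could be given a current gene identifier. The probe set with the highest mean over 18 arrays stood for a gene, and genes under the 40th percentile in tissue were left out.

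The 6 tissue arrays were fitted with limma 3.58.1 in R 4.3.3 (lmFit, eBayes with a mean-variance trend, Benjamini-Hochberg adjustment over 10916 genes). SE is that of the log2 difference, with n = 3 per group. Interactions were fitted over 12 arrays. Named are Sod1, every gene past the threshold, the 15 largest per direction with all values, up to 4 members per list by p, and the genes past the threshold in an interaction. P2ry12, Tmem119 and other members beyond these were named after their values were seen. Of 1187 entries in 45 gene lists, 1073 matched a gene. The comparison, lists and tests were chosen with earlier results of these data known, so no list is independent support. Lists are described by counts and medians, without a set test. Promoter sequences are from RefSeq (GRCm38.p6). Alternatives covered normalization, pseudocount, filter, probe set, variance model, arrays in the fit, array weights, a replicate block, the actin ratio and each array left out. Arrays have no read depth, and precision is limited by their number.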

Additional observations from a re-analysis of the deposited data

Results flagged for a closer look

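For 11 genes the difference between SOD1 mutant and wildtype samples was itself different between tissue and motor neurons, by limma's test of that difference over 12 arrays. These contrasts share the 6 tissue arrays. Against spinal motor neurons there were 6. Spinal motor neurons here means the samples, in which glial genes such as Gfap and Csf1r were also bright. Which cells gave this RNA was not tested. Lpl, the lipoprotein lipase, differed by 0.84 in tissue and 6.03 in spinal motor neurons, which is -5.18 between them (SE 0.45, adjusted p = 0.00024). Cys1, a protein of cilia, differed by -0.09 in tissue and 4.27 in spinal motor neurons, which is -4.36 between them (SE 0.56, adjusted p = 0.0112). Lpl and Cys1 were far below the 40th percentile of tissue in wildtype motor neurons, at 5.42 and 5.52, so the size of their differences there is uncertain. Gfap, the filament of astrocytes, differed by 0.88 in tissue and 2.85 in spinal motor neurons, which is -1.97 between them (SE 0.28, adjusted p = 0.0189). Laptm5, the lysosomal protein of microglia, differed by 1.12 in tissue and 2.63 in spinal motor neurons, which is -1.5023 between them (SE 0.24, adjusted p = 0.0393). Sparc, a matrix protein of astrocytes and vessels, differed by 0.05 in tissue and 0.98 in spinal motor neurons, which is -0.93 between them (SE 0.15, adjusted p = 0.0393). Psmd6, a proteasome subunit, differed by -0.05 in tissue and -1.13 in spinal motor neurons, which is 1.07 between them (SE 0.15, adjusted p = 0.0178). Of the 6, Gfap, Laptm5 and Lpl passed in tissue as higher, and the other 3 did not pass there.

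Against facial motor neurons there were 5, and none had passed in tissue. Igfbp3, a binding protein of insulin-like growth factors, differed by 0.50 in tissue and -4.15 in facial motor neurons, which is 4.65 between them (SE 0.63, adjusted p = 0.0269). Cdkn1c, a cell cycle inhibitor, differed by 0.14 in tissue and -3.41 in facial motor neurons, which is 3.55 between them (SE 0.35, adjusted p = 0.00141). Both were likewise low in SOD1 mutant facial motor neurons, at 5.31 and 6.37. Prrg1, a membrane protein with a Gla domain, differed by 0.19 in tissue and -2.03 in facial motor neurons, which is 2.21 between them (SE 0.34, adjusted p = 0.0453). Prpf4b, a splicing kinase, differed by 0.42 in tissue and -1.10 in facial motor neurons, which is 1.52 between them (SE 0.24, adjusted p = 0.0453). Fam120a, an RNA-binding protein, differed by -0.07 in tissue and -1.15 in facial motor neurons, which is 1.08 between them (SE 0.16, adjusted p = 0.0453). Leaving out single tissue arrays gave 1 to 2 genes in either contrast, so most of these calls need all arrays.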

How the results depend on the processing

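Under 19 alternatives, all 55 genes higher and all 15 lower in SOD1 mutant tissue kept their sign wherever they were tested. Their groups do not overlap, so many of these alternatives, such as leaving out an array, could not have reversed it. The number past the threshold moved. It was 36 higher and 19 lower when deposited values were brought to 1 median, 33 higher and 15 lower with a filter at the 60th percentile, 26 higher and 5 lower without the mean-variance trend, and 0 higher and 4 lower when 1 fit held the 18 arrays (215 genes at an unadjusted p under 0.05), where the spread is shared with the motor neuron arrays. It was 107 higher and 38 lower with array weights and 113 higher and 31 lower with the actin ratio as a covariate. With the replicate block it was 99 higher and 38 lower. Arrays with the same number deviated together with correlations of 0.30, 0.07 and 0.08, 4 of 6 arrays correlated best with their own number, and the numbers were not taken to pair the samples. Leaving out single arrays gave 10 to 97 higher and 3 to 22 lower: 97 higher and 22 lower without SOD1 mutant replicate 1, 26 higher and 6 lower without replicate 2 and 10 higher and 3 lower without replicate 3, then 51 higher and 13 lower, 24 higher and 6 lower and 31 higher and 8 lower without wildtype replicates 1, 2 and 3. Past the threshold in each of these 6 fits were 10 higher genes (Fcer1g, Grn, Ifit3, Laptm5, Ly86, Mpeg1, Tyrobp, Cd52, Oasl2 and Usp18) and 3 lower ones (Podxl2, Sbsn and Cdip1). Oasl2 and Usp18 had wildtype means below the filter level and entered the fits only through their mutant arrays, so their place is less secure. The remaining alternatives stayed within 1.5 times of both counts, including the brightest probe set in tissue for each gene, an alternative chosen after seeing the data. The 6 genes that differed from spinal motor neurons became 2 with the replicate block and 1 to 2 without single tissue arrays. The 5 that differed from facial motor neurons became 14 at a common median, 1 with a pseudocount of 1, 3 with the replicate block and 1 to 2 without single tissue arrays. Of 3950 values of 213 named genes, 3494 kept direction and side of the threshold, 350 no longer passed, 86 newly passed and 20 changed sign, all of genes that had not passed. Acta1 was at -1.75 to 0.70 without single arrays, Apoe was at -0.010 to 0.14 without single arrays, Cdh19 was at -0.15 to 0.031 without single arrays, Chil3 was at -0.0054 to 0.39 without single arrays, F13a1 was at -0.040 at a common median and -0.12 to 0.16 without single arrays, H2-Aa was at -0.11 to 0.66 without single arrays, H2-Ab1 was at -0.14 to 0.53 without single arrays. H2-Eb1 was at -0.098 to 0.45 without single arrays, Irak1 was at -0.23 by the probe set brightest in tissue, Jak1 was at -0.11 to 0.032 without single arrays, Mbp was at -0.035 at a common median and -0.034 by the probe set brightest in tissue, Ngp was at -0.0083 to 0.40 without single arrays, Pmp2 was at -0.11 to 1.49 without single arrays and Pmp22 was at -0.36 to 0.038 without single arrays. The higher end for Acta1 is without wildtype replicate 3. The cause of these moves was not tested. There were no detection calls, and genes below the 40th percentile entered only the fit without a filter, where 48 higher and 13 lower genes passed, 44 and 13 of them among the 55 and 15.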

Other observations

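Several pathways that are often examined in motor neuron disease gave few or no genes past the threshold in ventral cord, and the medians of the 6 lists with none lay between -0.02 and 0.11, beside -0.01 over all tested genes. Of all tested genes 0.641% passed, so 0 in lists of 14 to 41 genes lies near that share. Of the 27 genes of the unfolded protein response, which lightens the load of the endoplasmic reticulum, 0 passed, and the median was 0.05 (Chac1 at -0.39, Edem1 at 0.46, Atf4 at -0.16 and Ddit3 at 0.18 had the smallest p). The 41 nuclear-encoded subunits of the respiratory chain gave 0 past the threshold, a median of -0.02 and a range of -0.17 to 0.11, with Ndufa10 at -0.11, Ndufv2 at -0.11, Ndufs1 at -0.17 and Ndufa2 at 0.11. Cholesterol synthesis and efflux genes gave 0 of 24 (median 0.04), with Abca1 at 0.46, Msmo1 at 0.27, Plin2 at 0.27 and Cyp46a1 at -0.20. Immediate early genes, which respond to activity and handling within minutes, gave 0 of 14 (median -0.01), with Fos at 0.32, Egr1 at -0.22, Nr4a3 at -0.30 and Btg2 at 0.20. Of 21 apoptosis genes 0 passed, 18 had a higher mean in SOD1 mutant tissue and the median was 0.08. In 8 of the 21 every mutant array was above every wildtype array, beside 7.06% of all tested genes. Those with the smallest p were Tnfrsf1a at 0.59, Pycard at 0.83, Casp12 at 0.69 and Mcl1 at 0.21. Cell division genes gave 0 of 14 (median 0.11), with Mcm5 at 0.56, Ccnd3 at 0.20, Cdk4 at 0.16 and Ccnd2 at 0.12.

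Of 23 axon injury genes, Cd44 alone passed (median 0.13), followed by Hspb1 at 0.56, Il6st at 0.57 and Chl1 at 0.25. Of 30 genes of extracellular matrix and its proteases, Timp1 alone passed (median 0.18), followed by Adamts4 at -0.68, Plat at 0.42 and Bcan at -0.21. Of 19 iron and copper genes, Mt2 alone passed (median 0.08), followed by Slc11a1 at 0.81, Mt1 at 0.14 and Cp at 0.68. None of the genes named as following had an adjusted p under 0.05.

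Markers of further cell types gave 0 genes past the threshold, beside 0.641% of all tested genes. Endothelial markers had a median of 0.01 over 12 tested and a summed intensity of 104723 to 111027 in SOD1 mutant and 105964 to 106531 in wildtype tissue, with Slc2a1 at 0.16, Flt1 at -0.22, Pecam1 at -0.42 and Esam at -0.17. Neutrophil markers had summed intensities of 15036 to 22816 in SOD1 mutant and 14210 to 18373 in wildtype tissue and a median of 0.25 (4 of 5 higher), with S100a8 at 0.36, S100a9 at 0.25, Camp at 0.30 and Ngp at 0.23. Schwann cell markers had 67945 to 120666 in SOD1 mutant and 90444 to 118596 in wildtype tissue and a median of -0.05, with Mlip at -0.48, Pmp22 at -0.19, Pmp2 at 0.60 and Cdh19 at -0.05. All 4 tested ependymal markers had a lower mean in SOD1 mutant tissue (median -0.43), Ak7 at -0.46, Foxj1 at -0.43, Ccdc153 at -0.43 and Rsph1 at -0.07, and 2 of 8 were below the 40th percentile on all 6 arrays. Of the B cell list 7 of 8 genes were below it, and the immunoglobulin gene Ighm, the only one tested, was at -0.38. Of the T and natural killer cell list only Zap70 was tested, at 0.49. The 4 tested genes of border macrophages were Pf4 at 0.34, Chil3 at 0.29, Mrc1 at 0.21 and F13a1 at 0.01. Fibroblast and mural genes were led by Col3a1 at 0.88, Fmod at 0.73, Lum at 1.13 and Rgs5 at -0.24, dorsal horn and ganglion genes by Scn11a at 1.4998, P2rx3 at 1.01, Gbx1 at -0.48 and Lmx1b at -0.30, muscle genes by Myh7 at -0.23, Mylpf at -1.13, Ckm at -1.0005 and Acta1 at -0.90, and Hox genes by Hoxd10 at -1.11, Hoxc10 at -0.41, Hoxd9 at -0.28 and Hoxb5 at 0.28. Xist, which coats the silenced X chromosome, lay between 15.35 and 15.49 in SOD1 mutant and between 15.23 and 15.59 in wildtype tissue, and the Y-linked Eif2s3y, Kdm5d and Uty were below the 40th percentile on all 6 arrays.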
